A study of Homo sapiens with 18 samples.

Results

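The genes described here encode 32 enzymes of nucleotide synthesis and salvage, together with the folate enzymes that supply their one-carbon units. They were set by pathway and symbol, not by measured change, though earlier results of these data were known when they were chosen. All 32 were found among the 40184 gene rows of the deposited table. Of these, 13 act on purines, 9 on pyrimidines, 7 on deoxynucleotides and 3 on folate-bound one-carbon units. All 32 had at least 1 CPM (reads scaled to library size) in at least 3 libraries of each cell line. NME2 lay nearest that limit, at 0.974 to 2.65 CPM.

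RNA-seq was done on 18 samples of 3 established human acute myeloid leukaemia lines, in 6 groups of 3. Molm-14 and MV4-11 are labelled FLT3-ITD, an internal tandem duplication in the receptor tyrosine kinase FLT3, and SKNO-1 is labelled KIT N822K, a mutation in the receptor tyrosine kinase KIT. Cultures of each line were kept for 24 h in the presence of DMSO as vehicle, or of RMC-4550 at 500 nM, an allosteric inhibitor of SHP2, the phosphatase encoded by PTPN11 that passes receptor signals on to RAS. The SKNO-1 medium also held human GM-CSF at 10 ng/mL in both arms, so line, genotype and growth factor cannot be told apart. The labels call the replicates biological but do not say that they were separate cultures, and p-values measure only the spread between these samples.

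Purine nucleotides are assembled ring by ring on a ribose phosphate until the common precursor IMP is reached, which is then turned into AMP or GMP. Pyrimidines are made as a free ring that is joined to ribose phosphate to give UMP, from which CTP is derived. Ribonucleotide reductase converts ribonucleotides to deoxynucleotides, and thymidylate is made from dUMP with a carbon carried by folate. Dividing leukaemia cells draw on these routes and on salvage of preformed bases, and inhibitors of several of the enzymes are long-established drugs in leukaemia.

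Libraries held 17434810 to 19959917 reads. In 14 of them mitochondrial genes took 5.06% to 7.004% of the reads, and in 4 they took 10.5% to 14.99%: Molm-14 with RMC-4550 replicate 2, MV4-11 with DMSO replicates 1 and 3, and MV4-11 with RMC-4550 replicate 1. MV4-11 with DMSO therefore has a single library in the lower range, and the MV4-11 changes of the members are given with and without these 4 libraries. Of 8 myeloid markers, 6 or 7 were at 1 CPM or more in every library of each group; CD34 was not among them in any group, and MPO not in Molm-14 or MV4-11 with RMC-4550. Their summed level was 1265 to 1293 CPM in Molm-14 with DMSO and 1616 to 1713 with RMC-4550, 1267 to 1347 and 1356 to 1435 in MV4-11, and 1417 to 1456 and 1607 to 1740 in SKNO-1. Whether this had a part in the changes below was not tested. RUNX1T1, one partner of the t(8;21) fusion, was at 10.9 to 14.4 CPM in SKNO-1 and at 0 to 0.0508 CPM in the other lines.

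Sequences upstream of the start sites were read for 30 of the 32 members from the RefSeq promoter table (GRCh38.p14), and ADSL and IMPDH2 were without an entry. The 250 bases before each listed start were searched on both strands for the E-box CACGTG, the E2F-type sites TTTCCCGC and TTTGGCGC, and CCAAT. The E-box was found for 6 of 30 members (ATIC, DCK, DHODH, MTHFD1, MTHFD1L and PPAT) and for 7.73% of the 27305 genes in the table. TTTCCCGC or TTTGGCGC was found for 4 of 30 (DUT, GART, PRPS2 and TYMS) against 2.36% of genes, and CCAAT for 13 of 30 against 37.0%. A match is a string of letters and not a binding site, and no binding was measured here. The stretches printed below were trimmed so that no exon of the GENCODE 29 basic annotation overlaps them, with motifs in capitals. They are the 125 bases shared by the divergent genes PPAT and PAICS, which were both lower with RMC-4550 in Molm-14 and SKNO-1, the stretch of GART, which holds both kinds of motif, and that of RRM1, the member that differed most between libraries.
PPAT and PAICS, chr4:56435616-56435740, strand of PPAT (minus): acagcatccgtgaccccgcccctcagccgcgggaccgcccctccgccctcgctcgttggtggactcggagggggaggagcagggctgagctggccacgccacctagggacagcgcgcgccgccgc
GART, chr21:33542139-33542367, minus strand: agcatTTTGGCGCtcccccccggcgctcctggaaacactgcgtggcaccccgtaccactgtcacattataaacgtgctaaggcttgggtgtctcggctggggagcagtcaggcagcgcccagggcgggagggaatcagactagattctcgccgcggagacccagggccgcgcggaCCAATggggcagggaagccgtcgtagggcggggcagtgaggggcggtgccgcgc
RRM1, chr11:4094435-4094684, plus strand: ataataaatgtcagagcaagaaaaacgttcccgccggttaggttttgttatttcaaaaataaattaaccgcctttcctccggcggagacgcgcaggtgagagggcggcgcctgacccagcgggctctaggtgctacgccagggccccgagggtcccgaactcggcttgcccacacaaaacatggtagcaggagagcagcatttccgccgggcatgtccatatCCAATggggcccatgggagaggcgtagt
PPAT ends at base 56435615 and PAICS starts at base 56435741 of chromosome 4, so the printed stretch is the whole interval between the genes. The CACGTG match of PPAT lies outside it.

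Transcripts of the nucleotide synthesis enzymes were lower with RMC-4550, broadly so in Molm-14 and SKNO-1 and for fewer members in MV4-11. At an adjusted p under 0.05 (limma, Benjamini-Hochberg over all genes tested), 27 of the 32 members were called lower for Molm-14, 7 for MV4-11 and 21 for SKNO-1, and none was called higher in any line. Over all genes tested, 25.2% were lower and 21.5% higher (Molm-14), 8.03% and 5.85% (MV4-11), and 16.2% and 10.8% (SKNO-1). The median log2 change of the members was -1.02 (Molm-14), -0.13 (MV4-11) and -0.69 (SKNO-1), against -0.06, -0.01 and -0.05 over all genes tested. Without the 4 libraries rich in mitochondrial reads, 27, 21 and 28 members were lower and the medians were -0.92, -0.41 and -0.69, against 31.3%, 18.1% and 32.1% of all genes called lower. In that fit MV4-11 with DMSO has 1 library, which is assumed to vary like the other groups. In bulk RNA, fewer cells that express a gene and less RNA per cell cannot be told apart.

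All 3 treated libraries lay below all 3 DMSO libraries for 26 members of the set with Molm-14, 9 with MV4-11 and 28 with SKNO-1. This pattern was seen for 33.1%, 13.5% and 35.4% of all genes tested in those lines. Members lower in all 3 lines were PAICS, HPRT1, RRM2, DUT, DTYMK, TK1 and MTHFD1. That list rests on MV4-11: it held HPRT1, DTYMK and TK1 when each line was fitted alone, where RRM2, DUT, MTHFD1 and PAICS lost their MV4-11 calls at adjusted p of 0.070, 0.059, 0.12 and 0.15, and 20 members without the 4 libraries. A further 13 were lower in 2 lines and 8 in 1 line, and ADSL, IMPDH2, CMPK1 and NME2 were called in no line, in the full fit. The share of all genes with these patterns over the lines is not given here, so the counts describe the members only.

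**Figure D1:**
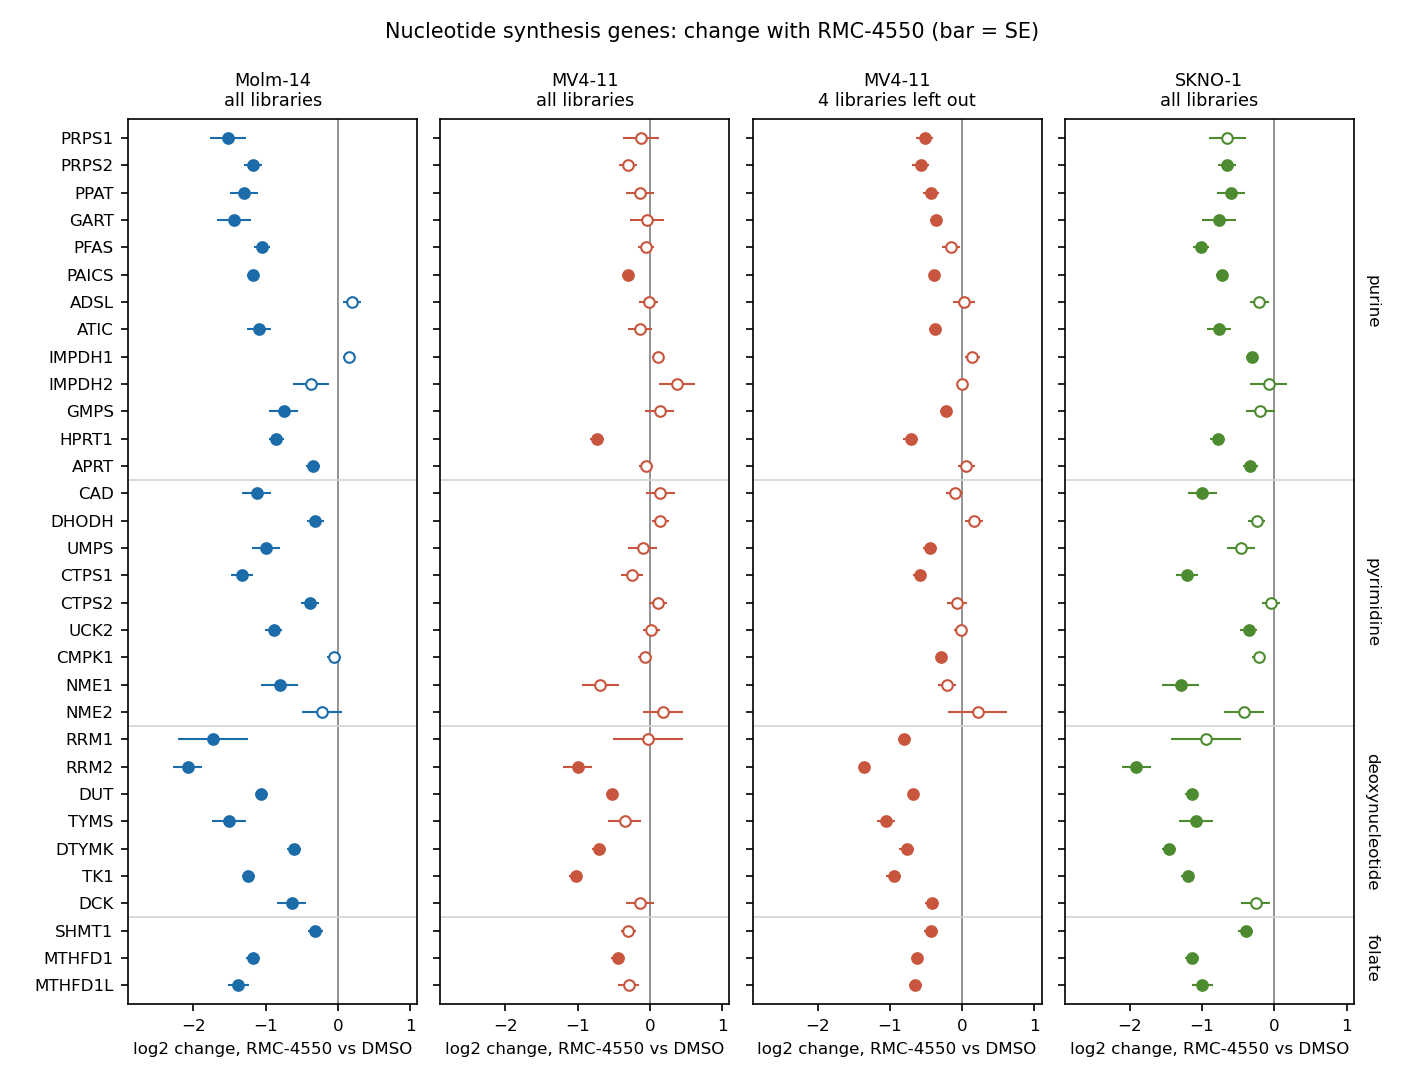
Log2 change with RMC-4550 against DMSO (x axis) for each of the 32 members (y axis, grouped by step), with bars of 1 SE, in Molm-14, MV4-11 with all libraries, MV4-11 without the 4 libraries above 10% mitochondrial reads, and SKNO-1. Filled points were called at an adjusted p under 0.05, and the panels hold 27, 7, 21 and 21 of them in that order, all on the negative side.

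The purine members fell in Molm-14 (10 of 13 lower, median log2 change -1.05) and in SKNO-1 (9 of 13, median -0.65), and 2 of 13 were lower in MV4-11 (median -0.05). In MV4-11 8 of 13 were lower without the 4 libraries (median -0.36). PRPS1 and PRPS2 make PRPP, the activated ribose phosphate on which the purine ring is built and to which the pyrimidine ring is joined. PRPS1 was read at 41.7, 45.3 and 47.2 CPM in Molm-14 with DMSO and at 17.3, 9.99 and 21.9 CPM with RMC-4550, a log2 change of -1.52 (SE 0.25, adjusted p = 1.6e-04). The treated value of 9.99 is that of the library rich in mitochondrial reads, and the groups did not overlap with or without it. In SKNO-1 PRPS1 went from 33.5, 34.9 and 32.1 to 20.7, 21.2 and 22.2 CPM without overlap, but its change of -0.65 was not called (limma adjusted p = 0.069). A fit of SKNO-1 alone, count weights, the mitochondrial share as a term (with or without a replicate block) or leaving out the 4 libraries called it, at -0.65 to -0.60. PRPS2 fell by 1.18 in Molm-14, from 41.2 to 42 CPM down to 15.7 to 21.4, and by 0.66 in SKNO-1, from 54.8 to 58.3 CPM down to 32.4 to 40.1. In MV4-11 the 2 genes changed by -0.12 and -0.31 without a call, and by -0.52 and -0.58, both called, without the 4 libraries.

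Ring assembly up to IMP is carried out by PPAT, which commits PRPP to purines, and then by GART, PFAS, PAICS, ADSL and ATIC. In Molm-14, PPAT was at 43.8, 41.9 and 41.8 CPM with DMSO and at 19.4, 12.9 and 20.4 CPM with RMC-4550, and in SKNO-1 at 45.1, 43.5 and 41.8 against 31.4, 25.7 and 29.7 CPM. Both were called (log2 -1.30, limma adjusted p = 6.1e-05, and -0.59, adjusted p = 0.032), and no treated library reached a DMSO library. PAICS (ENSG00000128050), which shares the interval printed above with PPAT, fell from 384, 380 and 377 CPM to 176, 145 and 187 in Molm-14. It fell from 309, 296 and 310 to 192, 179 and 184 CPM in SKNO-1, and from 291, 318 and 304 to 253, 240 and 243 CPM in MV4-11. Its log2 changes were -1.18, -0.72 and -0.31 (SE 0.08, limma adjusted p = 3.6e-08, 8.9e-06 and 0.020), and -0.40 in MV4-11 without the 4 libraries. The MV4-11 call of PAICS was lost without MV4-11 DMSO replicate 3 (-0.31), RMC-4550 replicate 2 (-0.29) or RMC-4550 replicate 3 (-0.30).

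GART, a protein with 3 activities of the route, was read at 117, 120 and 127 CPM in Molm-14 with DMSO and at 56.9, 29.6 and 53.3 CPM with RMC-4550 (log2 -1.44, limma adjusted p = 1.5e-04). In SKNO-1 it went from 77.8, 80.4 and 79.4 to 47.5, 46.3 and 46.5 CPM (-0.76, adjusted p = 0.025). That narrow spread did not secure the SKNO-1 call, which did not survive the loss of a single SKNO-1 library, whichever of the 6 was dropped (-0.77 to -0.75). The fit takes its spread from all 18 libraries, and GART stayed called when SKNO-1 was fitted alone. The SKNO-1 call of PPAT was likewise lost without any 1 SKNO-1 library except RMC-4550 replicate 1, at -0.62 to -0.51. PFAS and ATIC were lower in Molm-14 (-1.05 and -1.09) and SKNO-1 (-1.01 and -0.76). PFAS went from 72.9 to 76.2 CPM down to 33.5 to 41.1 in Molm-14, and from 40.6 to 42.9 down to 17.9 to 23.2 in SKNO-1. ADSL, which acts both before IMP and on the way to AMP, differed from its neighbours in the route. In Molm-14 it was at 16.7, 15.2 and 12.6 CPM with DMSO and at 15.7, 18.7 and 16.3 with RMC-4550. Its groups overlapped in all 3 lines, with log2 changes from -0.21 to 0.20. ADSL shares 1344 exonic bases with a gene model on its own strand, read at 0.106 to 0.800 CPM. Reads could have been lost or split between them, so its level is uncertain. In MV4-11, GART, PPAT and ATIC changed by -0.04, -0.13 and -0.14 without a call, and by -0.36, -0.43 and -0.37, all called, without the 4 libraries. PFAS was not called in MV4-11 in either fit (-0.05 and -0.15).

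IMPDH1 and IMPDH2 carry out the rate-limiting step from IMP to GMP, and GMPS completes it. IMPDH1 did not fall with the ring assembly genes in the FLT3-ITD lines. It was read at 103, 105 and 110 CPM with DMSO and 116, 124 and 115 with RMC-4550 in Molm-14 (log2 0.15, limma adjusted p = 0.14), and at 92, 91.8 and 89.1 against 93.8, 95.6 and 107 CPM in MV4-11 (0.12, adjusted p = 0.42). In both lines all treated libraries lay above all DMSO libraries without a call, and in SKNO-1 it was lower, from 92.1, 101 and 102 to 72.4, 89.3 and 77.1 CPM (-0.31, adjusted p = 0.012). Under quantile normalization the Molm-14 rise was called (0.27) and the SKNO-1 fall was not (-0.20). The SKNO-1 call was also lost without SKNO-1 RMC-4550 replicate 1 (-0.24) or DMSO replicate 3 (-0.28). IMPDH2 was at 490, 512 and 516 against 478, 253 and 497 CPM in Molm-14 and at 326, 318 and 324 against 302, 321 and 295 CPM in SKNO-1. It was at 217, 411 and 224 CPM in MV4-11 with DMSO and at 261, 406 and 413 with RMC-4550. The low values of IMPDH2 are those of the 4 libraries rich in mitochondrial reads, and without them its changes were -0.05 (Molm-14), -0.00 (MV4-11) and -0.08 (SKNO-1). GMPS was called lower in Molm-14 only in the full fit (-0.75, adjusted p = 0.0070), and in all 3 lines without the 4 libraries (-0.47, -0.23 and -0.19).

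HPRT1 and APRT recover preformed purine bases. HPRT1 (ENSG00000165704) fell by a like amount in the 3 lines: from 73.3, 73.7 and 67.9 to 38.6, 42.4 and 38.2 CPM in Molm-14, from 59.8, 59.6 and 72.6 to 42.5, 38.7 and 34.4 CPM in MV4-11, and from 42.6, 47.4 and 47.6 to 28.8, 25.4 and 25.6 CPM in SKNO-1. Its log2 changes were -0.85, -0.73 and -0.78 (SE 0.10, limma adjusted p = 6.1e-06, 1.2e-04 and 2.6e-05), and they ran from -0.90 to -0.64 whichever library was left out, with -0.71 in MV4-11 without the 4 libraries. APRT was lower by 0.34 in Molm-14 and 0.33 in SKNO-1, where all treated libraries lay below all DMSO libraries, and its values overlapped in MV4-11 (-0.05, and 0.06 without the 4 libraries). The Molm-14 call of APRT was lost without Molm-14 DMSO replicate 3 (-0.28), and the SKNO-1 call without SKNO-1 DMSO replicate 3 (-0.28), RMC-4550 replicate 1 (-0.24) or RMC-4550 replicate 3 (-0.34).

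Among the pyrimidine members, 7 of 9 were lower in Molm-14, 4 of 9 in SKNO-1 and 0 of 9 in MV4-11, with median log2 changes of -0.80, -0.42 and 0.02. These counts were 7, 7 and 3 without the 4 libraries (UMPS, CTPS1 and CMPK1), with a median of -0.10 in MV4-11. CAD holds the first 3 activities of the route in a single protein. It fell from 130, 140 and 152 to 76.3, 49.8 and 69.6 CPM in Molm-14 and from 91.1, 91.7 and 86.5 to 41.1, 49.8 and 44.3 CPM in SKNO-1 (log2 -1.12 and -0.997, limma adjusted p = 3.4e-04 and 0.0017). In MV4-11 it was at 67, 108 and 65.6 CPM with DMSO and at 63.8, 93 and 108 CPM with RMC-4550, with overlap, and its change of 0.15 became -0.10 without the 4 libraries, with no call in either fit. UMPS, which closes the route to UMP, fell by 0.99 in Molm-14 and, without overlap or call, by 0.46 in SKNO-1 (adjusted p = 0.099), where it was called at the same size in a fit of that line alone (adjusted p = 1.3e-04) or without the 4 libraries. In MV4-11 UMPS changed by -0.10 without a call, and by -0.44, called, without the 4 libraries. DHODH, the mitochondrial enzyme of the route and a drug target in leukaemia, changed by -0.31 for Molm-14 (adjusted p = 0.042), and without a call by -0.25 for SKNO-1 and 0.14 for MV4-11 (0.17 without the 4 libraries). Its Molm-14 groups overlapped (18.4 to 21.1 against 13.8 to 19.7 CPM), and the call was lost without Molm-14 DMSO replicate 1 or 3, or RMC-4550 replicate 1 or 3, at -0.30 to -0.21.

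CTPS1 and CTPS2 convert UTP to CTP, and CTPS1 is the form known for its role in proliferating lymphocytes. CTPS1 fell from 51.1, 52.2 and 55 to 21.6, 19.1 and 22.6 CPM in Molm-14 and from 32.1, 31.9 and 31.6 to 14.5, 13.3 and 13.5 CPM in SKNO-1. These are log2 changes of -1.32 and -1.21 (SE 0.15, limma adjusted p = 5.4e-06 and 2.5e-05), with groups far apart. In MV4-11 it was at 31.5, 48.3 and 28.4 against 24.9, 33.2 and 31.1 CPM, -0.25 with overlap, and -0.59 (called) without the 4 libraries. CTPS2 did not follow it: 28.5, 25.3 and 24.3 against 26.1, 25.1 and 24.1 CPM in SKNO-1 (-0.05) and 14.7, 21 and 17.8 against 17.4, 19.1 and 20.8 in MV4-11 (0.11, and -0.08 without the 4 libraries), both with overlap. In Molm-14, where CTPS2 is low, it went from 4.78, 5.77 and 5.01 to 3.94, 3.84 and 4.07 CPM (-0.39, adjusted p = 0.019), a call lost without Molm-14 DMSO replicate 2 (-0.31).

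UCK2, which phosphorylates salvaged uridine and cytidine, fell from 71.9, 75.9 and 79.5 to 43.9, 34.9 and 44.8 CPM in Molm-14 (-0.89, limma adjusted p = 2.0e-05) and from 49 to 57.2 CPM down to 41.5 to 42.8 in SKNO-1 (-0.35, adjusted p = 0.035). The SKNO-1 call was lost without any 1 SKNO-1 library except DMSO replicate 1, at -0.36 to -0.31. In MV4-11 UCK2 changed by 0.02, and by -0.02 without the 4 libraries, with no call. CMPK1, the kinase of UMP and CMP, was between 163 and 219 CPM in all 18 libraries and was not called in any line in the full fit. In SKNO-1, where its groups did not overlap, its change of -0.22 (adjusted p = 0.098) was called in a fit of that line alone or without the 4 libraries, and in MV4-11 it was -0.29 and called without them. NME1 makes nucleoside triphosphates from diphosphates. It went from 22, 21.2 and 22.7 to 8.65, 9.70 and 8.51 CPM in SKNO-1 (-1.30, adjusted p = 0.0014) and from 32.7, 29.6 and 28.5 to 13.1, 25.9 and 15.3 CPM in Molm-14 (-0.80, adjusted p = 0.018). The Molm-14 call was lost without Molm-14 DMSO replicate 1 (-0.75), RMC-4550 replicate 1 (-0.60) or RMC-4550 replicate 3 (-0.72), and the MV4-11 change of -0.69 was not called. It was called in MV4-11 without DMSO replicate 2 (-1.02) or RMC-4550 replicate 1 (-0.87) and with the mitochondrial share as a term (-0.33), and was -0.21 without a call when the 4 libraries were left out. NME1 shares 638 exonic bases, and NME2 603, with a read-through gene of both that has no row in the table, so reads could have been split between them and both levels are uncertain.

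The deoxynucleotide members held the largest changes, with 7 of 7 lower in Molm-14, 5 of 7 in SKNO-1 and 4 of 7 in MV4-11 (median log2 changes -1.24, -1.14 and -0.53). All 7 were lower in each line without the 4 libraries, and in a fit of MV4-11 alone DTYMK and TK1 were. RRM2 (ENSG00000171848), the small subunit of ribonucleotide reductase whose level rises in S phase, fell from 145, 150 and 146 to 40.3, 25.2 and 41.1 CPM in Molm-14. It fell from 160, 161 and 159 to 42.7, 40.1 and 45 CPM in SKNO-1, and from 103, 178 and 104 to 49.3, 71.7 and 66.7 CPM in MV4-11. The log2 changes of -2.08, -1.91 and -1.002 (SE 0.20, limma adjusted p = 9.3e-07, 3.9e-06 and 0.0033) had no overlap in any line, and the MV4-11 change was -1.36 without the 4 libraries. RRM2 shares 1077 exonic bases with a gene model on the same strand that has no row in the table.

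RRM1, the large subunit printed above, was the member that differed most between replicates. It was at 112, 114 and 119 CPM in Molm-14 with DMSO and at 56, 13.8 and 53.7 with RMC-4550, and at 35, 118 and 36.2 against 30.9, 74.9 and 60.9 CPM in MV4-11. In SKNO-1 it was at 123, 118 and 121 against 63.2, 62.5 and 62.9 CPM. The 4 values from 13.8 to 36.2 CPM are those of the 4 libraries rich in mitochondrial reads. The fit over all libraries gave a log2 change of -1.73 for Molm-14 (SE 0.49, limma adjusted p = 0.0084). MV4-11 showed -0.03 (adjusted p = 0.98), and SKNO-1 -0.94 with groups far apart (adjusted p = 0.17). Without the 4 libraries the changes were -1.07, -0.80 and -0.94, all called (adjusted p = 1.8e-09, 1.2e-05 and 2.6e-09).

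Thymidylate is made by TYMS from dUMP, which DUT supplies by removing dUTP, and is phosphorylated by DTYMK. DUT fell from 128, 118 and 121 to 60.8, 52.6 and 62.7 CPM in Molm-14, from 89.8, 96.5 and 97.8 to 42.3, 42.8 and 43.6 in SKNO-1, and from 91.8, 106 and 84.1 to 62.5, 64.8 and 68 in MV4-11. Its log2 changes were -1.06, -1.14 and -0.53 (SE 0.09, limma adjusted p = 2.2e-07, 1.8e-07 and 8.5e-04), and -0.68 in MV4-11 without the 4 libraries. DTYMK (ENSG00000168393) was at 34.8, 36.3 and 36.6 against 22.6, 24.7 and 23.4 CPM in Molm-14, 29.8, 35.3 and 30.6 against 17.1, 19.7 and 21.8 in MV4-11, and 26, 27 and 29 against 10.3, 9.42 and 10.2 in SKNO-1. The SKNO-1 fall of 1.45 was larger than those of 0.61 and 0.71 in the other lines, and all 3 were called without overlap, with a MV4-11 change of -0.77 without the 4 libraries. TYMS fell from 29, 32.8 and 32.7 to 13.1, 8.26 and 12.6 CPM in Molm-14 (-1.50, adjusted p = 8.5e-05) and from 21.9, 21.5 and 18.3 to 9.86, 9.56 and 9.52 CPM in SKNO-1 (-1.09, adjusted p = 0.0024). In MV4-11 it was at 13.8, 30 and 13.9 against 13.4, 14 and 14.8 CPM: the single DMSO library in the lower mitochondrial range stood apart, and the change was -0.35 with it among 3 and -1.06 (called) without the 4 libraries. TYMS shares 967 exonic bases with ENOSF1 on the opposite strand, which was at 42.6 to 102 CPM, and since the strand setting of the counting is not given in the sources used here, its reads may include some from ENOSF1. The same holds for GART, which shares 275 exonic bases with SON on the opposite strand (296 to 387 CPM), UCK2 with TMCO1 (225 bases), SHMT1 with SMCR8 (196 bases) and MTHFD1 with ZBTB25 (178 bases). DCK shares 199 bases with MOB1B on its own strand.

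TK1 and DCK salvage deoxynucleosides, and DCK also activates cytarabine. TK1 (ENSG00000167900) fell in each line: from 48.4, 49.8 and 48.6 to 23.3, 18.6 and 20.5 CPM in Molm-14, from 69.8, 62.1 and 64.6 to 31.9, 30.6 and 33.8 in MV4-11, and from 73.7, 77.9 and 83.2 to 32.7, 35.2 and 34.3 in SKNO-1. Its log2 changes were -1.24, -1.03 and -1.20 (SE 0.09, limma adjusted p = 3.6e-08, 9.7e-07 and 8.3e-08), and -1.16, -0.95 and -1.20 without the 4 libraries. DCK fell by 0.64 in Molm-14 (adjusted p = 0.014), where the treated values were 37.9, 21.6 and 33.6 CPM against 46.6 to 47.7. That call was lost without Molm-14 RMC-4550 replicate 2 (-0.40), and in SKNO-1 the DCK change of -0.26 was not called although all treated libraries lay below all DMSO libraries. It was called there at the same size in a fit of that line alone or without the 4 libraries. The MV4-11 change of DCK was -0.13 without a call, and -0.42, called, without the 4 libraries.

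**Figure D2:**
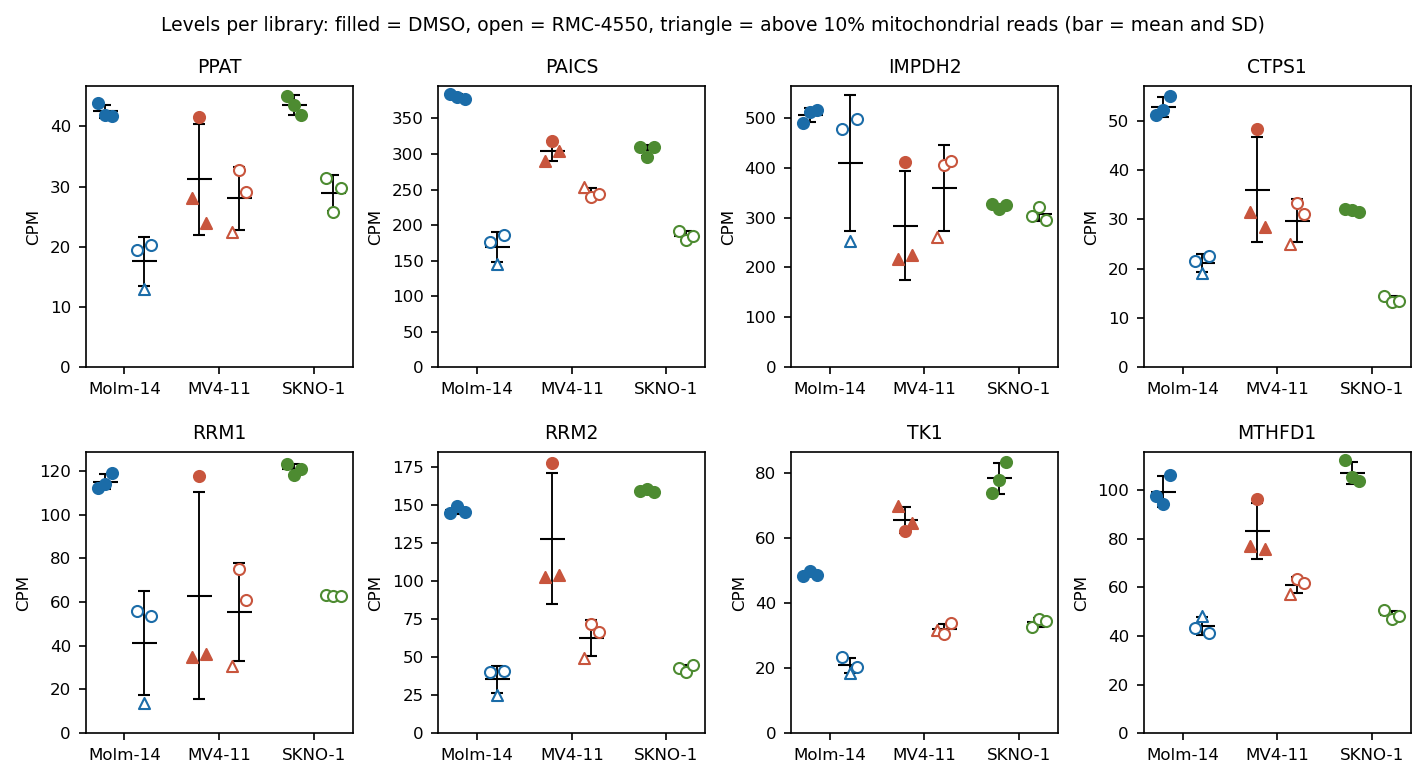
Level in CPM (y axis) of 8 members in each of the 18 libraries, by line (x axis), with filled points for DMSO, open points for RMC-4550, triangles for the 4 libraries above 10% mitochondrial reads, and the mean and SD of each group (n = 3) in black. TK1 and PAICS separate by treatment in every line, while the triangles lie below the circles of their own group for RRM1 and IMPDH2.

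The folate members were lower in Molm-14 and SKNO-1 (3 of 3 in each), and 1 of 3 in MV4-11, a count that was 3 of 3 without the 4 libraries and 0 of 3 in a fit of MV4-11 alone. MTHFD1 (ENSG00000100714), the cytosolic enzyme with 3 folate activities, fell from 97.3, 94.1 and 106 to 43.1, 48.4 and 41 CPM in Molm-14, from 112, 105 and 104 to 50.6, 46.9 and 48.1 in SKNO-1, and from 77, 96.3 and 75.8 to 57, 63.5 and 61.8 in MV4-11. These are log2 changes of -1.17, -1.14 and -0.44 (SE 0.10, limma adjusted p = 1.6e-07, 3.3e-07 and 0.0053), and the MV4-11 change was -0.62 without the 4 libraries. MTHFD1L, which releases formate in mitochondria, fell from 119, 125 and 130 to 49.9, 41.6 and 53.2 CPM in Molm-14 (-1.38) and from 57.7, 56.9 and 57.4 to 30.9, 27.1 and 28.3 in SKNO-1 (-0.998). Its MV4-11 change of -0.29 missed the threshold, and it was -0.65 and called without the 4 libraries. SHMT1, the cytosolic serine hydroxymethyltransferase, changed less: -0.31 in Molm-14, -0.39 in SKNO-1 (both called) and -0.30 in MV4-11, where all treated libraries were below all DMSO libraries but the adjusted p was 0.067. It was called there without the 4 libraries (-0.43), with the mitochondrial share as a term (-0.40), with a replicate block (-0.30), with both of these terms (-0.37) and after quantile normalization (-0.27). The Molm-14 call of SHMT1 was lost without Molm-14 RMC-4550 replicate 2 (-0.24) or DMSO replicate 3 (-0.27).

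Many members were low in the libraries rich in mitochondrial reads, whatever the treatment. Set against the libraries of the same group in the lower range, 18 of the 32 members were lower in all 4 of these libraries, as were 31.6% of the 16262 genes in the fit, and 4 members (ADSL, HPRT1, DHODH and NME1) were higher in all 4, as were 26.2% of genes. The mean difference was -1.64 on the log2 scale for RRM1, -0.85 for IMPDH2 and 0.86 for NME1, and it was -0.004 for TK1. Summarised as the median over the 32 members against the line's DMSO libraries in the lower range, MV4-11 with DMSO replicates 1 and 3 stood at -0.42 and -0.34. Those values were close to the -0.35 and -0.45 of MV4-11 with RMC-4550 replicates 2 and 3, and RMC-4550 replicate 1 stood at -0.64. For MV4-11 the reference is a single library, DMSO replicate 2, and an unusual replicate 2 would give the same picture. It is also the only reference for MV4-11 with DMSO replicates 1 and 3 in the counts above. A fit that adjusts for the mitochondrial share called 27 members lower in Molm-14, 20 for MV4-11 and 28 for SKNO-1. Over all genes tested, that fit called 30.2%, 22.2% and 29.5% lower. DHODH was higher in MV4-11 (0.25, limma adjusted p = 0.049), as were 12.1% of all genes tested there.

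**Figure D3:**
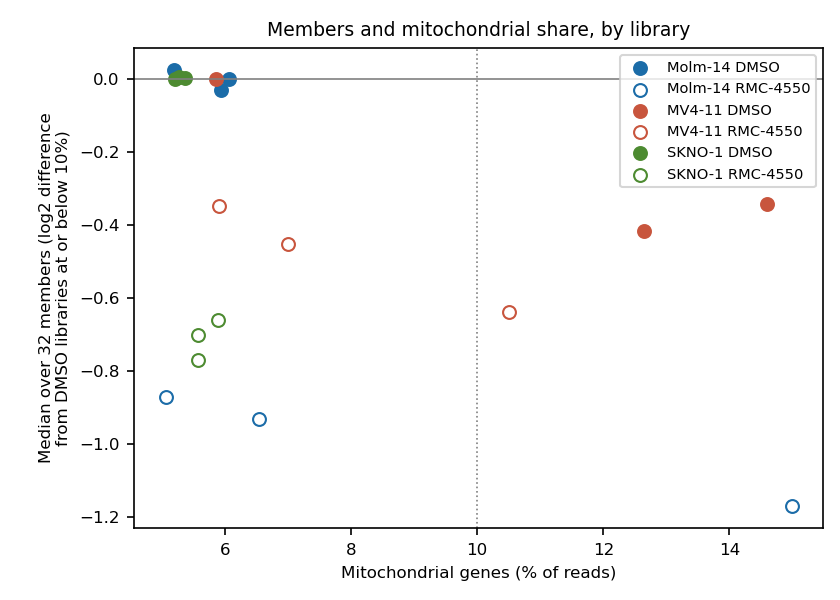
Median over the 32 members of the log2 difference from the same line's DMSO libraries at or below 10% mitochondrial reads (y axis), against the share of reads in mitochondrial genes (x axis, %), for each of the 18 libraries. The MV4-11 DMSO libraries above 10% lie at -0.42 and -0.34, beside -0.64 to -0.35 for the treated MV4-11 libraries, while SKNO-1 libraries separate by treatment at 5.21% to 5.90%. The reference of MV4-11 is a single DMSO library.

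Whether the response differed between lines was tested as a difference of log2 changes. The change in SKNO-1 was more negative than the mean change of the FLT3-ITD lines for DTYMK (-0.80, SE 0.12, limma adjusted p = 0.0012) and for IMPDH1 (-0.44, SE 0.10, adjusted p = 0.021), and for no other member, against 2.45% of all genes lower and 1.35% higher in this test. The IMPDH1 difference was not called when all genes were kept in the fit whatever their level (-0.44), nor without SKNO-1 RMC-4550 replicate 1 (-0.38) or 3 (-0.42), or DMSO replicate 2 (-0.42) or 3 (-0.42). Without the 4 libraries the differences were -0.75 for DTYMK and -0.43 for IMPDH1. Over the 32 members the median was -0.07 in that fit, with 21 values negative. MV4-11 with DMSO has a single library there.

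Between the FLT3-ITD lines, the change was more negative in Molm-14 than in MV4-11 for 17 members and less so for none, against 9.12% and 10.3% of all genes. The largest differences among them were those of PRPS1 and GART (-1.40 each, limma adjusted p = 0.015 and 0.010) and CAD (-1.27, adjusted p = 0.0078). The PRPS1 and GART calls were lost when only Molm-14 and MV4-11 were fitted, as were those of ATIC, GMPS, UMPS, RRM2 and TYMS. PAICS (-0.87, adjusted p = 2.2e-04) and PFAS (-0.999, adjusted p = 6.5e-04) had the lowest adjusted p-values. Without the 4 libraries the differences were smaller: PRPS1 -0.68, GART -0.78, CAD -0.84, PAICS -0.68 and PFAS -0.86, with 0.30 for CMPK1. The median over the 32 members was -0.40 in that fit, with 27 values negative. GMPS, UMPS and TYMS were called in the full fit and not in that one (-0.24, -0.26 and -0.24). Their calls were also lost without Molm-14 DMSO replicate 2 or 3, MV4-11 DMSO replicate 1 or 3, Molm-14 RMC-4550 replicate 2, or MV4-11 RMC-4550 replicate 2 or 3. In the fits that lost the call the values ran from -0.91 to -0.60 for GMPS and UMPS and from -1.16 to -0.94 for TYMS. Without Molm-14 DMSO replicate 1, GMPS (-0.88) and UMPS (-0.89) were lost as well. The RRM2 difference of -1.08 was not called without MV4-11 DMSO replicate 1 (-0.94) or 3 (-0.95), or RMC-4550 replicate 2 (-0.97). HPRT1, DTYMK and TK1, lower in all lines, showed no called difference between Molm-14 and MV4-11.

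With DMSO, more members were higher than lower in Molm-14 relative to each other line. Relative to MV4-11, 18 members were higher and 2 lower in Molm-14 (29.1% and 25.1% of all genes), and relative to Molm-14, 3 were higher and 15 lower in SKNO-1 (31.8% and 33.6%). The 18 became 11 without MV4-11 DMSO replicate 1, and 7 with a replicate block and the mitochondrial share as terms. SKNO-1 against MV4-11 gave 5 higher and 1 lower (20.1% and 22.4%). Without the 4 libraries, MV4-11 with DMSO has a single library and the last comparison changed direction. The median of that comparison over the members, 0.12 in the full fit, also turned negative with the mitochondrial share as a term and all libraries kept. Leaving out 1 library at a time kept it at 0.02 to 0.18. The cause was not tested. MTHFD1L and SHMT1 were higher in Molm-14 than in MV4-11 by 1.05 and 0.68 and lower in SKNO-1 than in Molm-14 by 1.12 and 0.92 on the log2 scale (all called). These contrasts share DMSO libraries with one another and with the responses. CTPS2 went the other way, at 4.78 to 5.77 CPM in Molm-14, 14.7 to 21 in MV4-11 and 24.3 to 28.5 in SKNO-1, without overlap between any 2 lines. Its log2 difference was -1.77 for Molm-14 against MV4-11 and 2.32 for SKNO-1 against Molm-14 (limma adjusted p = 7.7e-09 and 8.9e-11).

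Pairs of enzymes for the same step were set side by side per kilobase of their longest coding transcript in GENCODE 29. The ratio of CTPS2 to CTPS1 rose with treatment from 0.907 ± 0.069 to 2.03 ± 0.059 in SKNO-1 (SD, n = 3) and from 0.109 ± 0.012 to 0.208 ± 0.013 in Molm-14, without overlap, as CTPS1 fell. CTPS2 was thus the more abundant form per kilobase in SKNO-1 with RMC-4550 and the less abundant in every Molm-14 and MV4-11 library. The ratio of RRM2 to RRM1 fell from 1.11 ± 0.029 to 0.567 ± 0.032 in SKNO-1, and in Molm-14 it was 1.07 ± 0.037 with DMSO and 0.924 ± 0.524 with RMC-4550, where the library rich in mitochondrial reads gave 1.53. IMPDH2 exceeded IMPDH1 in every library, by 3.57 to 8.52 times. The ratio of PRPS2 to PRPS1 was 1.45 ± 0.060 and 1.45 ± 0.187 in SKNO-1, so these genes kept their proportion there within the spread. With 3 libraries a group an exact permutation test of one ratio cannot go below p = 0.10, and no test of the ratios is given.

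**Figure D4:**
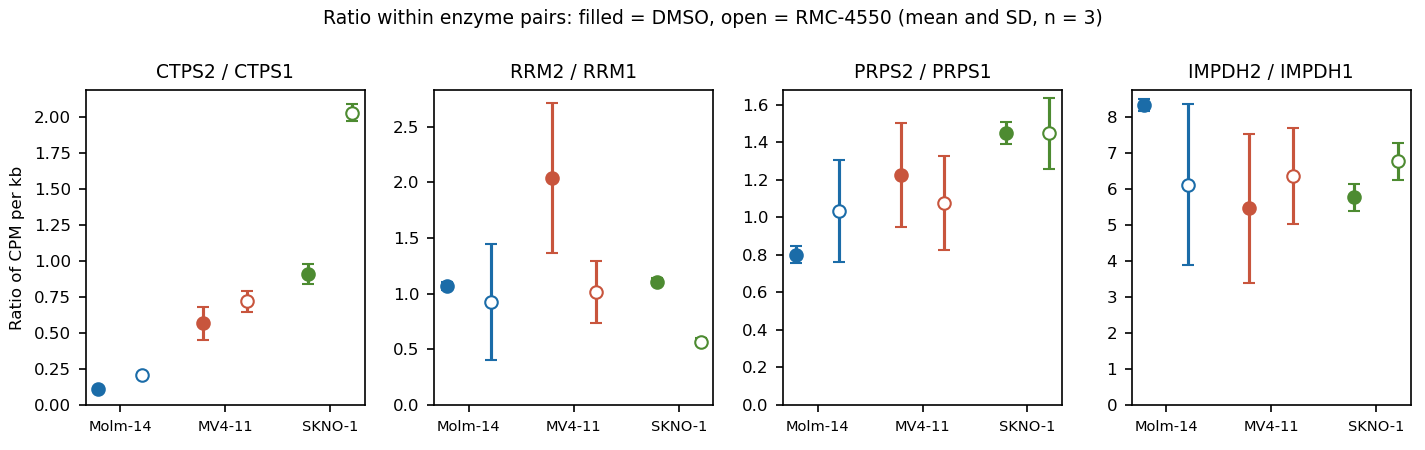
Ratio of CPM per kilobase (y axis, mean and SD, n = 3) within 4 enzyme pairs, by line (x axis), with filled points for DMSO and open points for RMC-4550. CTPS2 over CTPS1 rises from 0.907 to 2.03 in SKNO-1, and the wide bars of RRM2 over RRM1 and IMPDH2 over IMPDH1 in Molm-14 and MV4-11 belong to groups that hold libraries above 10% mitochondrial reads.

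A wider set of 72 genes of the same pathways moved in both directions. In Molm-14, 27 of the 62 tested were lower and 13 higher, in MV4-11 9 and 8 of 66, and in SKNO-1 16 and 8 of 65, with medians of -0.29, 0.01 and -0.07, beside the 25.2% and 21.5%, 8.03% and 5.85%, and 16.2% and 10.8% of all genes given above. In MV4-11 the median of this set was -0.009 without the 4 libraries. Of the folate and serine genes, 10 of 14 were lower and 1 higher for Molm-14, 3 and 0 of 14 for MV4-11 and 5 and 0 of 13 for SKNO-1. PSAT1 and PHGDH, which make serine, were among them in all 3 lines: PSAT1 fell from 196 ± 2.43 to 53.2 ± 1.40 CPM in Molm-14 (SD, n = 3), from 122 ± 5.604 to 61.7 ± 2.14 in MV4-11 and from 64.3 ± 1.57 to 35.8 ± 3.72 in SKNO-1. The log2 changes of PHGDH were -0.70, -0.41 and -0.42. GGH, which trims folate polyglutamates, changed by -1.12, -1.01 and -1.26.

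Other shared changes lay in nucleoside handling. TYMP, which breaks thymidine down, rose from 20.3 ± 1.34 to 44.8 ± 7.22 CPM in Molm-14, from 32.9 ± 5.59 to 58.6 ± 6.67 in MV4-11 and from 27.2 ± 1.02 to 55.7 ± 1.74 in SKNO-1. This was opposite to TK1 in each line and to TYMS in Molm-14 and SKNO-1, while TYMS was not called in MV4-11. SLC29A3, a nucleoside carrier of lysosomes, rose by 0.88, 1.16 and 0.92 on the log2 scale, while SLC29A2, a carrier of the cell surface, fell by 0.92, 0.67 and 0.62. DCTD, which turns dCMP into dUMP, changed by -0.73, -0.32 and -0.50. ADSS1, an enzyme from IMP towards AMP, was higher in Molm-14 (0.82) and lower in SKNO-1 (-0.26). Pentose phosphate genes, which supply ribose, gave 3 lower and 2 higher of 8 in Molm-14, 0 and 1 in MV4-11 and 2 and 2 in SKNO-1.

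A pair of lists of other growth genes was measured in the same way. Of 21 genes of the replication fork, 21 were lower in Molm-14, 17 for MV4-11 and 19 for SKNO-1, with median log2 changes of -1.19, -0.59 and -1.43, and of 20 ribosome biogenesis genes 20, 4 and 14 were lower, with medians of -0.88, -0.09 and -0.54. Over all genes tested, 25.2% (Molm-14), 8.03% (MV4-11) and 16.2% (SKNO-1) were called lower in the same fit. In MV4-11 the medians were -0.76 for the fork genes and -0.26 for the ribosome genes without the 4 libraries. These medians are descriptions over few genes, and no test of one list against another was made.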

How the data were processed

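The authors deposited 1 table of 18 columns and 40184 Ensembl gene rows holding log2 values, and per the submitters' processing notes FastQC, STAR, limma and the build GRCh38 were used, with versions and the strand setting not given in the sources used here. Each value is the log2 of CPM, computed from reads plus 0.5 and a scaled library size: values under 50 reads came out as whole reads in 100% of cases (within 0.02 reads), so reads and CPM were recovered from them. No column was left unused.

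Groups were taken from the labels. Limma 3.58.1 (R 4.3.3, empirical Bayes with a trend) was fitted once to the deposited log2 values of all 18 libraries, with 1 coefficient per group and no covariate. Genes needed 1 CPM in 3 of 18 libraries (16262 genes), and for each comparison in 3 libraries of the lines compared. P-values were adjusted by Benjamini-Hochberg over all genes tested, and calls are at an adjusted p under 0.05. SE and p are from that fit. On 4 simulated tables with 200 changed genes each, for the Molm-14 response among 16262 genes, it recovered 291 of 400 changes of 1 log2 unit and 118 of 400 of 0.5, and 9.91% of its calls were unchanged genes. The simulated spread was drawn for each gene on its own, with no library shifted as a whole. Far fewer genes changed than were called here (25.2% lower and 21.5% higher in Molm-14), so these rates may not hold for these data.

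Members and lists were chosen with earlier results of these data known. All members are named; other pathway genes were named for a call in the same direction in all 3 lines or in opposite directions. Some results of that list are not reported here. Motifs and positions come from the RefSeq promoter table and GENCODE 29. Other pseudocounts, filters, scalings, count weights (voom on recovered reads), a replicate block, the mitochondrial share and leaving out libraries were tried as alternatives. No 2 libraries were duplicates of each other.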

Additional observations from a re-analysis of the deposited data

Results flagged for a closer look

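The change with RMC-4550 differed between lines, by a test of the difference itself, for 19 comparisons of members. In SKNO-1 against the mean of the FLT3-ITD lines these were IMPDH1 (-0.44) and DTYMK (-0.80), both lower in SKNO-1 on the log2 scale.

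In Molm-14 against MV4-11 the purine genes were PRPS1 (-1.40), PRPS2 (-0.87), PPAT (-1.17), GART (-1.39), PFAS (-0.999), PAICS (-0.87), ATIC (-0.95) and GMPS (-0.88). The pyrimidine genes were CAD (-1.27), UMPS (-0.89), CTPS1 (-1.08) and UCK2 (-0.91), the deoxynucleotide genes RRM2 (-1.08), DUT (-0.53) and TYMS (-1.15), and the folate genes MTHFD1 (-0.73) and MTHFD1L (-1.08). Of the 4 libraries above 10% mitochondrial reads, 3 are of MV4-11 and 1 of Molm-14. Without them the median difference of the members was -0.40 in place of -0.81, and GMPS, UMPS and TYMS were not called. The part of these libraries in the difference was not tested.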

How the results depend on the processing

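Counts below are members called lower with RMC-4550, in the order Molm-14, MV4-11, SKNO-1, against 27, 7 and 21. They were 25, 6 and 18 with no filter, 26, 7 and 19 with median-ratio scaling, 23, 8 and 17 with quantile normalization, 25, 3 and 28 with a separate fit per line, and 26, 7 and 22 with count weights. The share of all genes called is not given here for these settings, the replicate block or single libraries left out. Of 65 genes of the wider pathway set tested in SKNO-1, the separate fit called 28 lower and 15 higher, against 16 and 8. The 3 members called in MV4-11 by the separate fit were HPRT1, DTYMK and TK1. RRM1, PRPS1, UMPS, DCK, GMPS, DHODH and CMPK1 were called in SKNO-1 by the separate fit. With the mitochondrial share as a covariate they were 27, 20 and 28, with 1 higher in MV4-11, and without the 4 libraries 27, 21 and 28; with the block and the share together MV4-11 had 20. Quantile normalization gave 1 higher in Molm-14 (IMPDH1). With the share as a covariate, 30.2%, 22.2% and 29.5% of all genes tested were called lower.

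The replicate numbers showed no clear pairing of the samples. Deviations of same-numbered libraries correlated at -0.40 to 0.59 over 9 pairs (mean 0.08). Those of libraries with different numbers correlated at -0.72 to 0.64 over 18 pairs (mean -0.05). With so few libraries a group, the check cannot exclude a pairing. A replicate block gave 26, 8 and 21 lower. In the comparison of SKNO-1 with MV4-11 in DMSO, the block gave 8 higher and 4 lower. The block with the mitochondrial share gave 3 and 3 there, and 7 higher for Molm-14 against MV4-11.

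Medians for Molm-14 were -0.86 (quantile) and -0.90 (share), and for MV4-11 -0.37 (share), -0.36 (block and share) and -0.41 (4 libraries out). For SKNO-1 they were -0.68 (log2 of CPM plus 1), -0.72 (mean of at least 5 CPM), -0.63 (median-ratio), -0.62 (quantile), -0.68 (share) and -0.68 (block and share). The SKNO-1 difference from the FLT3-ITD mean was called lower for 1 member with no filter, 9 with the share and 9 with the block and share. With the share, 12% of all genes tested were lower in that difference. Molm-14 against MV4-11 gave 10 lower with separate fits. SKNO-1 against MV4-11 in DMSO gave 3 higher with no filter, separate fits or the share. Its lower calls were 3 (quantile), 2 (count weights) and 12 (share). Its median of 0.12 reversed to -0.14 (share), -0.19 (block and share) and -0.16 (4 libraries out), and GMPS in MV4-11 reversed from 0.13 to -0.23 without the 4 libraries. The cause was not tested.

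Leaving out 1 library at a time gave 24 to 26 lower in Molm-14, 6 to 8 in MV4-11 (0 to 1 higher) and 16 to 19 in SKNO-1, with medians of -1.11 to -0.92, -0.27 to 0.03 and -0.74 to -0.67. The difference of SKNO-1 from the FLT3-ITD mean had 1 to 6 lower, and that of Molm-14 from MV4-11 13 to 21. In DMSO, Molm-14 against MV4-11 had 11 to 23 higher and 2 to 3 lower, SKNO-1 against MV4-11 3 to 10 and 1 to 2, and SKNO-1 against Molm-14 3 to 3 and 12 to 13. Levels near 1 CPM, such as NME2, rest on few reads.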
